A study of Mus musculus with 4 samples.

Results

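The genes described here encode the chains of the pre-B cell receptor and the first proteins that signal from it. The group was set by 10 gene symbols: Igll1, Vpreb1, Vpreb2 and Vpreb3 for the surrogate light chain and its relatives, Cd79a and Cd79b for the signalling chains, and Blnk, Syk, Btk and Blk for the adaptor and kinases. Every probe set annotated to exactly 1 of these symbols was taken, which gave 12 probe sets for 9 of the 10 genes, of 22626 probe sets tested, which cover 12393 genes by a probe set of their own. Vpreb2 had no probe set of its own. The 1 probe set that reads it is annotated to Vpreb1 as well and is described separately.

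A large pre-B cell that has rearranged its immunoglobulin heavy chain cannot yet make a light chain. It pairs the heavy chain with a surrogate light chain built from the products of Igll1 (lambda5) and Vpreb1 or Vpreb2, and the complex sits at the membrane with Cd79a (Ig-alpha) and Cd79b (Ig-beta), whose cytoplasmic tails are phosphorylated by Src-family kinases such as Blk. Syk docks on these tails and phosphorylates the adaptor Blnk, which brings in Btk and its substrate phospholipase C gamma. This checkpoint drives a burst of division and then ends surrogate light chain expression, so Igll1, Vpreb1 and Vpreb2 are standard markers of the pro-B to pre-B stages in bone marrow.

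The arrays came from bone marrow of Mll-AF4stop knock-in mice, in which a fusion of MLL with AF4 stays off until Cre recombinase activates it. All mice had received 5-FU (5-fluorouracil), which kills cycling blood cells, and 5 days later their marrow was given a Cre-GFP retrovirus (group Cre-GFP, 2 arrays) or a control GFP retrovirus named MIG (group control, 2 arrays). In both groups GFP+ cells were sorted after 2 days and kept for 14 days with cytokines for lymphoid progenitors, and 20 ng of total RNA was amplified for each array. The series' design text names the control virus MIG-Cre, whereas each sample's own label gives a GFP control, and the labels were followed. By those labels only 1 group received Cre, so the presence of Cre and the activation of the fusion cannot be told apart. The promoter that drives the fusion, the strain, age and sex of the mice, and the mouse or culture behind each array are not given in the sources used here. As a result, the p-values measure only the spread between 4 arrays, which may be technical.

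The values are the authors' RMA intensities on a linear scale, which were put on the log2 scale. The median over all probe sets lay between 6.41 and 6.45 on the 4 arrays. B lineage markers (7 measured, after the genes of the group were taken out of a list of 13) had summed intensities of 16801 and 16545 on the Cre-GFP arrays and of 17917 and 20502 on the control arrays, and 0 of the 7 lay under the 20th percentile on all arrays. Of the 7, 5 were lower in Cre-GFP and 2, Rag1 and Dntt, were higher. Without overlap 4 were lower and 0 higher, against 14.7% and 15.2% of all probe sets. Myeloid markers (18 of 19 measured) summed to 9370 and 8172 on the Cre-GFP arrays and to 2934 and 8417 on the control arrays (numbers 1 and 2 in this order, here and below). Of the 18, 15 were higher and 3 lower in Cre-GFP, where 49.8% of all probe sets were lower. Without overlap 7 were higher and 1 lower, against 15.2% and 14.7% of all. On all arrays 1 of the 18 lay under the 20th percentile. The sums of the T lineage, NK, dendritic, mast cell and basophil, erythroid, megakaryocyte and stroma markers lay between 249.8 and 1944 on every array. Control 1 thus had the lowest myeloid sum, but bright genes add most to a sum, and single markers differed. S100a8 was low in control 1 only, at 10.47 and 11.07 on the Cre-GFP arrays and 8.98 and 11.47 on the control arrays. Mpo and Ctsg were low on both control arrays. Mpo read 7.32 and 7.32 on the Cre-GFP arrays against 6.21 and 5.93, and Ctsg 7.48 and 7.75 against 6.62 and 6.63. In bulk RNA, fewer cells of a type and less RNA per cell cannot be told apart.

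The promoters of 5 of these genes are shown: Cd79a, Vpreb3, Blnk and Igll1 each have a probe set that was lower in Cre-GFP without overlap between the groups, and Vpreb1 makes the surrogate light chain with Igll1. Syk also has such a probe set, but 2 starts, and is not shown. Each sequence runs 5′ to 3′ on the gene's strand from 250 bases before to 50 bases after the transcription start in RefSeq (GRCm38.p6). Capitals mark matches, on either strand, to the octamer ATTTGCAT (bound by Oct factors with Pou2af1), the E box CAGGTG (bound by E2A), the core CCCNNGGG of the Ebf1 palindrome, and AGGAAGT, an Ets core.
Cd79a (chr7:24897247-24897546, + strand): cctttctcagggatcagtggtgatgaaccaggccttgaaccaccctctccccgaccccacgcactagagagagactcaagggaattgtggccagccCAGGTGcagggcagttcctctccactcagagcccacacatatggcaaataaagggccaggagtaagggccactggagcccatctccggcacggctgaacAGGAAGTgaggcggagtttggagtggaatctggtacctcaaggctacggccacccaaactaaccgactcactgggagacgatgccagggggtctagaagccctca
Vpreb3 (chr10:75948050-75948349, + strand): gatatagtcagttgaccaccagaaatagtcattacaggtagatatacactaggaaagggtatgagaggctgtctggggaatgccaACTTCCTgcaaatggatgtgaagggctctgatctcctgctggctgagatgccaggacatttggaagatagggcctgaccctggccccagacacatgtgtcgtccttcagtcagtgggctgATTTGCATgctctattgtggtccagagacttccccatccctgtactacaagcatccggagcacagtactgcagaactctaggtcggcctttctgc
Blnk (chr19:40994172-40994471, - strand): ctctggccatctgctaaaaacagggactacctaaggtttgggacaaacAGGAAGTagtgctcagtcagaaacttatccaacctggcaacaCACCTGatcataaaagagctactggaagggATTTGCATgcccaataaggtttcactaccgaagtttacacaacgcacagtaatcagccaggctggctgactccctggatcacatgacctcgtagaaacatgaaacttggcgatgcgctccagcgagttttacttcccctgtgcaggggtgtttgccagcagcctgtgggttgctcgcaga
Igll1 (chr16:16863936-16864235, - strand): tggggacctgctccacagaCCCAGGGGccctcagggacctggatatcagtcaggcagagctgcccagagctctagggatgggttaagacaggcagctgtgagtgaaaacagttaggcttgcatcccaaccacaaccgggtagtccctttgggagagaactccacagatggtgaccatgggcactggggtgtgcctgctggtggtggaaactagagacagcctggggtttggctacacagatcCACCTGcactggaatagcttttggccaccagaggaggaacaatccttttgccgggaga
Vpreb1 (chr16:16869206-16869505, - strand): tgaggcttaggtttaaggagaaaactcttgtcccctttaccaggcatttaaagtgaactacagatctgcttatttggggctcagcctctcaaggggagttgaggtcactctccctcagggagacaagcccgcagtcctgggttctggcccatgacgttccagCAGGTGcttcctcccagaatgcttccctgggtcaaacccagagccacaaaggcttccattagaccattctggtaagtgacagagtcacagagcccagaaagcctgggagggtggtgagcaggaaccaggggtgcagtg

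The table of promoters held 9 windows for 8 of the 10 genes (Syk has 2 starts), and Cd79b and Blk were not matched. The octamer occurred in 2 of the 9, in Vpreb3 from 45 to 38 bases and in Blnk from 130 to 123 bases before the start, against 1.74% of all 32851 promoter windows of 300 bases. The E box occurred in 7 of the 9, against 20.2%, and the Ets core in 3, those of Cd79a, Vpreb3 and Blnk, against 9.35%. The Ebf1 core was found in 1, that of Igll1, against 13.7%. The windows of Vpreb1 and Vpreb2 share a run of 91 identical bases that holds their E box. The motifs were chosen with these sequences in view, no match overlapped another, and a match describes letters only. Igll1 (chr16:16860671-16863985) and Vpreb1 (chr16:16868401-16869255) lie 4416 bases apart, and Vpreb2 lies 1.11 Mb away on the same chromosome.

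Across the group, 11 of the 12 probe sets were lower in Cre-GFP, as were 49.8% of all probe sets, and in 6 of them, from 6 genes, both Cre-GFP arrays lay below both control arrays. Such non-overlap downwards occurred in 14.7% of all probe sets, and non-overlap upwards, in 15.2% of all, occurred in 0 of the 12. The median difference over the 12 was −0.34 on the log2 scale, against 5.7e-05 over all probe sets. In limma with Benjamini-Hochberg adjustment over all 22626 probe sets, 0 of the 12 passed a threshold of 0.05 (smallest adjusted p = 0.74), as did 0 of all probe sets (percent called 0, smallest adjusted p = 0.19). At an unadjusted p under 0.05, 2 of the 12 were lower, those of Cd79a and Cd79b, against 2.4% of all probe sets, and 0 were higher. That count was 6 without control 1, the array with the low myeloid sum, where 3.39% of all probe sets were lower in this way. It was 3 without Cre-GFP 1 (1.93% of all), 1 without Cre-GFP 2 (2.02%) and 1 without control 2 (2.13%). An exact permutation test of 2 against 2 arrays cannot go below 0.33. Differences are therefore given as sizes with their standard errors (SE) and 95% confidence intervals, and none is called a change.

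**Figure D1:**
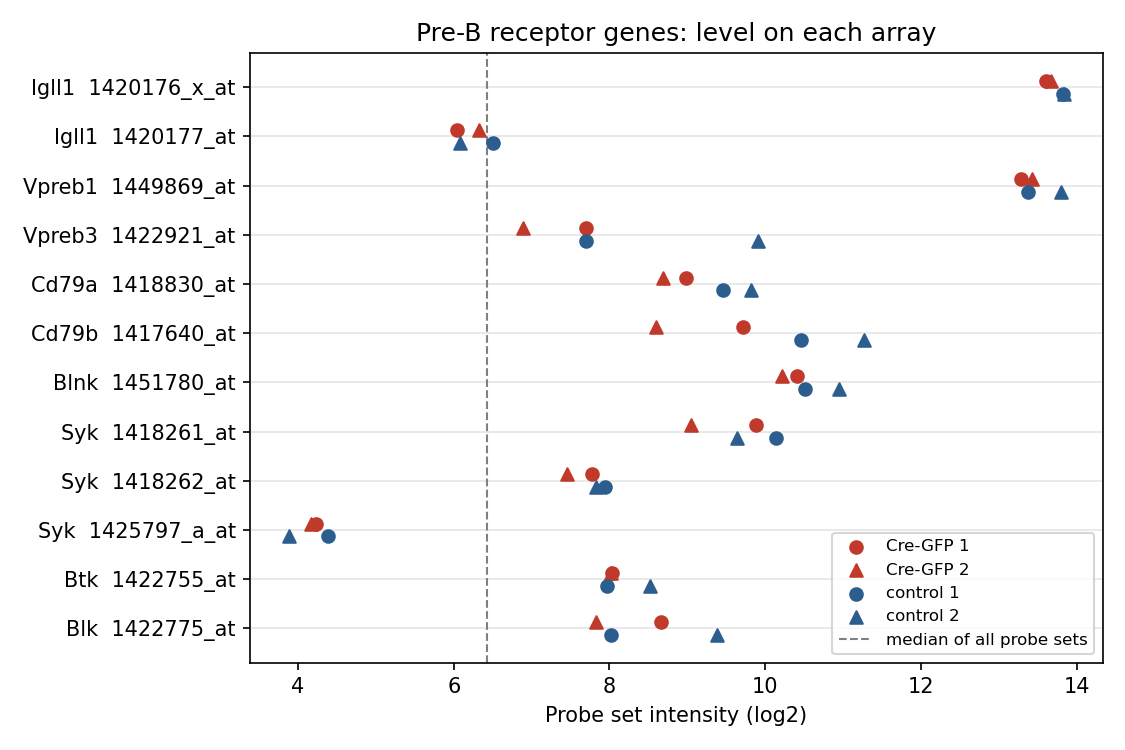
Log2 intensity of the 12 probe sets on each of the 4 arrays (red, Cre-GFP; blue, control; circles, replicate 1; triangles, replicate 2); the dashed line is the mean of the 4 array medians. The bright Igll1 probe set and Vpreb1 lie near the top of the scale in both groups. The wide spreads of Vpreb3 and Blk come with a high value in control 2. That of Cd79b comes with a high value in control 2 and a low one in Cre-GFP 2.

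Cd79b, one of the 2 chains whose tails carry the signal, had the largest difference of the group. Its intensity was 842 and 388 on Cre-GFP arrays 1 and 2 and 1407 and 2467 on control arrays 1 and 2, or 9.72 and 8.60 against 10.46 and 11.27 on the log2 scale. The lower control array stood 0.74 above the higher Cre-GFP array, so the groups did not overlap, but the arrays of each group also differed among themselves, by 1.12 in Cre-GFP and 0.81 in control. The log2 difference was −1.70 ± 0.43 (SE, n = 2 per group; 95% interval −2.76 to −0.65), a 3.26-fold lower level in Cre-GFP, with an adjusted p = 0.74 in limma. Leaving out Cre-GFP 2 gave −1.15, and leaving out Cre-GFP 1 gave −2.26.

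Cd79a, its partner in the membrane heterodimer, was also lower, by a smaller amount. It read 8.99 and 8.69 on the Cre-GFP arrays and 9.45 and 9.82 on the control arrays, again without overlap. That came to a log2 difference of −0.80 ± 0.21 (95% interval −1.32 to −0.28), or 1.74-fold, with an adjusted p = 0.76 in limma. Only 0.999% of all probe sets had a smaller unadjusted p than Cd79b, and 1.21% a smaller one than Cd79a.

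Igll1, the lambda5 part of the surrogate light chain, was among the brightest signals on all 4 arrays. Its bright probe set (1420176_x_at) read 13.60 and 13.67 on the Cre-GFP arrays and 13.82 and 13.83 on the control arrays. The replicates lay within 0.064 of each other in Cre-GFP and 0.013 in control, closer than for any other member probe set in control, and the groups did not overlap. The log2 difference was −0.19 ± 0.09 (95% interval −0.41 to 0.03), a 1.14-fold lower level, with an adjusted p = 1 in limma. For the signal of this probe set, the interval leaves out a difference as large as that of Cd79b. Differences were smaller among the brightest probe sets, as described below, so the interval does not bound the difference in the transcript. The suffix of this probe set marks probes that can also bind related transcripts, which were not told apart here. The other Igll1 probe set (1420177_at) was dim, at 6.04 and 6.32 on the Cre-GFP arrays and 6.51 and 6.08 on the control arrays, with overlapping groups and a difference of −0.12 ± 0.19. Its mean lay at the 46.6th percentile of all probe sets, that of the bright one at the 99.6th, and signal differs between probe sets with their probes, so the 2 do not give a common level.

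Vpreb1, the other part of the surrogate light chain, was also among the brightest probe sets on all 4 arrays. It read 13.28 and 13.42 on the Cre-GFP arrays and 13.38 and 13.80 on the control arrays, and the groups overlapped. On the log2 scale Vpreb1 differed by −0.23 ± 0.16 (95% interval −0.62 to 0.16), and −0.02 without control 2. The probe set shared by Vpreb1 and Vpreb2 (1422416_s_at), which lies outside the rule, read 10.80 and 11.13 on the Cre-GFP arrays and 10.58 and 12.37 on the control arrays. Control 2 was far above the other 3 arrays there, and control 1 was the lowest. Its difference of −0.51 ± 0.55 turned to 0.39 without control 2, so no direction can be given for Vpreb2.

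The brightest 2 member probe sets were checked for a ceiling in the signal. On every array between 68 and 114 probe sets were brighter than the bright Igll1 probe set, and between 75 and 166 were brighter than that of Vpreb1. The brightest probe set of each array stood 1.02 to 1.19 above Igll1 and 1.06 to 1.49 above Vpreb1 on the log2 scale, so neither sat at the maximum of the deposited values. Single probes were not analysed here. Differences were smaller in this range: over the 210 probe sets with a mean log2 intensity of 13 or more, the median absolute difference between the groups was 0.057, against 0.098 over all probe sets and 0.13 between 9 and 11. Within those 210, 10 had a larger absolute difference than Igll1 and 7 a larger one than Vpreb1. Counting decreases only, 4 were lower than Igll1 and 2 lower than Vpreb1.

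**Figure D2:**
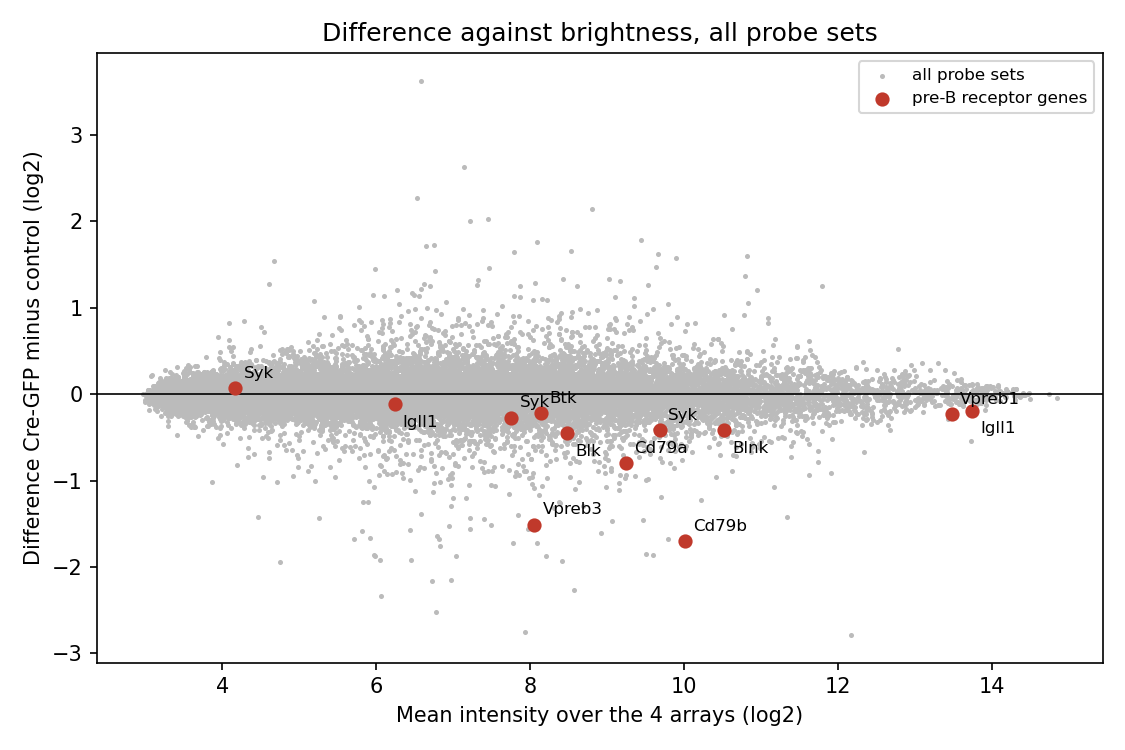
Difference between the groups (Cre-GFP minus control, log2) against mean log2 intensity over the 4 arrays for all 22626 probe sets (grey) and the 12 of the pre-B receptor genes (red). The cloud narrows above 13, where Igll1 (−0.19) and Vpreb1 (−0.23) lie at its lower side, and Cd79b and Vpreb3 lie far below 0 at middle intensity.

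Vpreb3 encodes a protein related to Vpreb1 that associates with newly made immunoglobulin chains inside the cell. It read 7.69 and 6.89 on the Cre-GFP arrays and 7.70 and 9.91 on the control arrays. Its groups were separated by only 0.0054, since Cre-GFP 1 and control 1 had nearly the same value and control 2 stood 2.21 above control 1. Its log2 difference was −1.51 ± 0.70 (95% interval −3.23 to 0.21), with an adjusted p = 1 in limma. It was −0.40 without control 2 and −2.62 without control 1, so its size rests on which control array is used.

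Blnk, the adaptor that links Syk to Btk and phospholipase C gamma, read 10.41 and 10.21 on the Cre-GFP arrays and 10.51 and 10.95 on the control arrays. The groups did not overlap, and their nearest arrays stood 0.10 apart. The log2 difference was −0.42 ± 0.20 (95% interval −0.92 to 0.083), a 1.33-fold lower level in Cre-GFP. It was −0.20 without control 2 and −0.63 without control 1.

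Syk, the kinase that docks on the phosphorylated Cd79 tails, was read by 3 probe sets. The brightest (1418261_at) read 9.89 and 9.05 on the Cre-GFP arrays and 10.14 and 9.63 on the control arrays, overlapping groups with a difference of −0.42 ± 0.33. The second (1418262_at) read 7.78 and 7.45 on the Cre-GFP arrays and 7.95 and 7.83 on the control arrays, without overlap and with a difference of −0.27 ± 0.18. Both were lowest in Cre-GFP 2 and highest in control 1. Without Cre-GFP 2 the first gave 9.5e-04 and the second −0.11. The third (1425797_a_at) lay under the 20th percentile on all 4 arrays, at 4.24 and 4.17 against 4.39 and 3.89, where its difference was 0.07 ± 0.17.

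Btk, the Tec-family kinase activated downstream of Syk, read 8.03 and 8.02 on the Cre-GFP arrays and 7.97 and 8.52 on the control arrays. The 2 Cre-GFP arrays and control 1 were nearly equal, and control 2 alone was higher. Btk differed by −0.22 ± 0.22 (95% interval −0.77 to 0.32), and it was 0.05 without control 2. Blk, the Src-family kinase largely kept to the B lineage, read 8.67 and 7.83 on the Cre-GFP arrays and 8.02 and 9.37 on the control arrays. Its groups were interleaved, with the highest and the second lowest value both in control. The difference of −0.45 ± 0.49 (95% interval −1.65 to 0.75) turned to 0.23 without control 2.

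**Figure D3:**
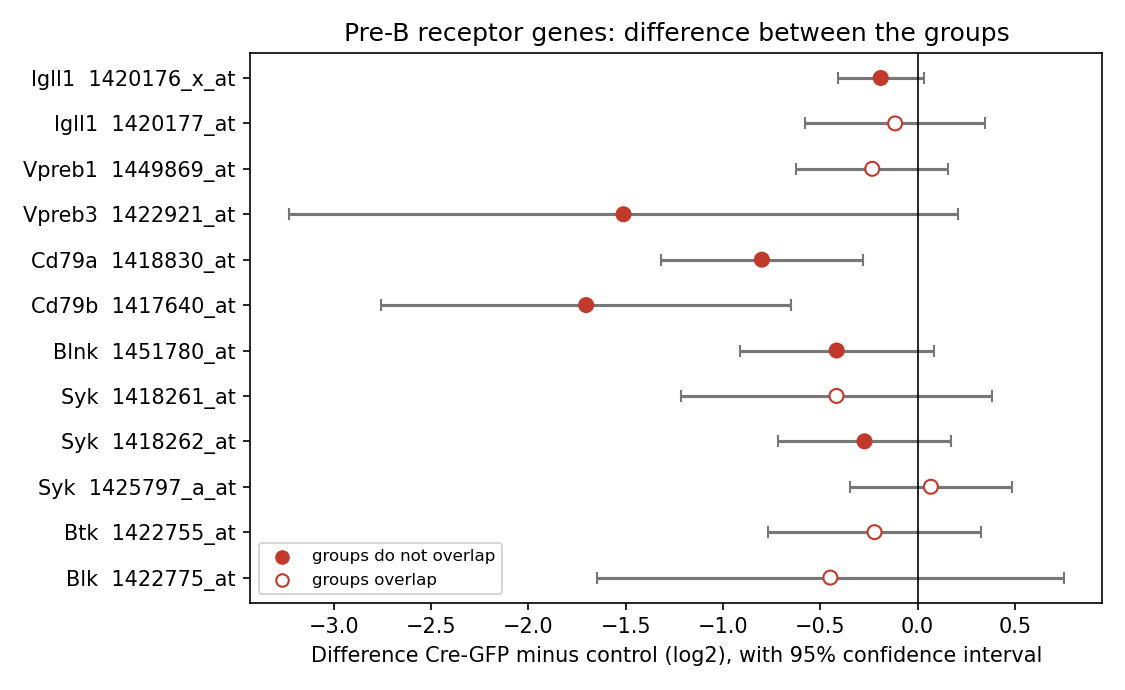
Log2 difference, Cre-GFP minus control, for each of the 12 probe sets with its 95% confidence interval from limma (n = 2 arrays per group); filled points have groups that do not overlap. Only the intervals of Cd79a and Cd79b lie wholly below 0, and 11 of the 12 points lie below it.

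The members did not all vary in the same way from array to array. Of the 12 probe sets, 8 had their highest value in control 2, against 23.5% of all probe sets, and 7 their lowest in Cre-GFP 2, against 29.3%. The median of the members' values, each centred on its own mean, was −0.12 and −0.30 on the Cre-GFP arrays and 0.14 and 0.36 on the control arrays. From low to high, these medians ran Cre-GFP 2, Cre-GFP 1, control 1, control 2. Only Cd79a, Cd79b, Blnk and Vpreb3 held this order. The 3 Syk probe sets and the dim one of Igll1 were highest in control 1, the array with the lowest myeloid marker sum. Both Igll1 probe sets and Vpreb1 were lowest in Cre-GFP 1, and Btk was lowest in control 1. In Blk, control 1 (8.02) lay below Cre-GFP 1 (8.67). Syk, Btk and Blnk are also expressed in myeloid cells, and the part of the myeloid markers in their values was not tested.

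**Figure D4:**
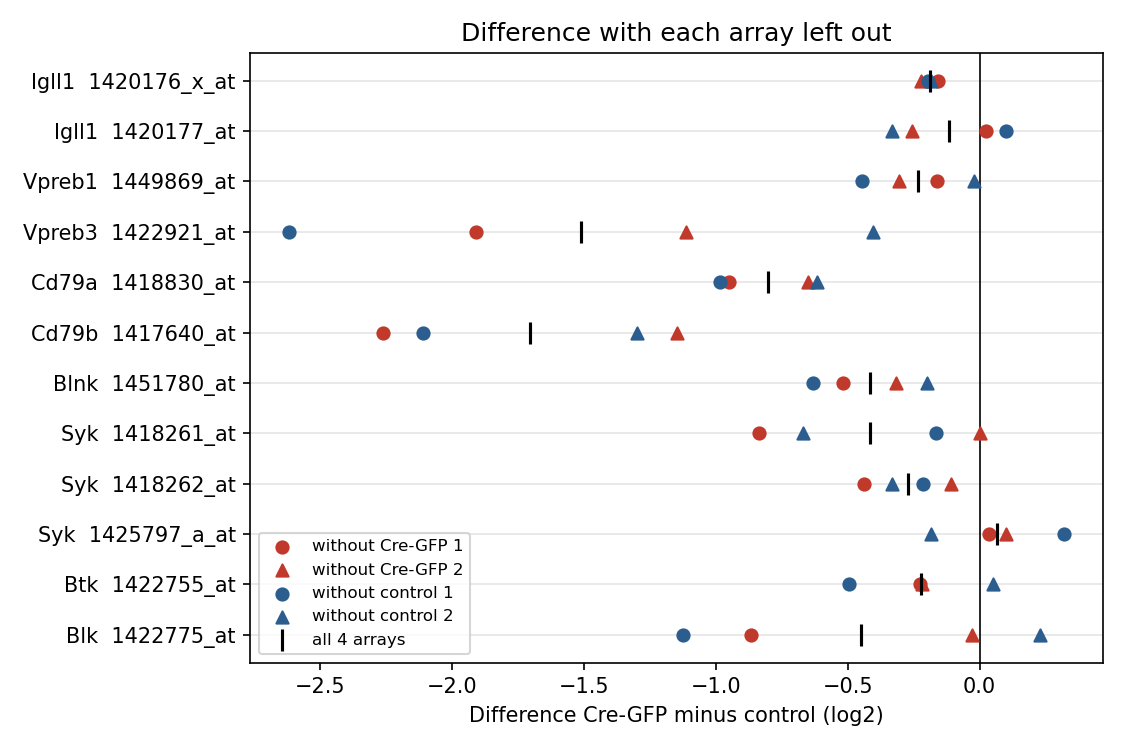
Log2 difference, Cre-GFP minus control, of each probe set with all 4 arrays (black bar) and with each array left out (red, a Cre-GFP array; blue, a control array; circles, replicate 1; triangles, replicate 2). Cd79b, Cd79a, Blnk, Vpreb1, Vpreb3 and the bright Igll1 probe set stay below 0 throughout, whereas Btk and Blk cross 0 without control 2.

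The genes whose profile over the 4 arrays was nearest to the mean centred profile of the 9 measured members (by root mean square distance, among 10284 probe sets of other genes at or above the median intensity) were Atp1b1 (a sodium pump subunit) at 0.049, B3gnt2 (a glycosyltransferase) at 0.057, Gldc (glycine decarboxylase) at 0.069, Ero1b (an oxidase of the endoplasmic reticulum) at 0.070 and Mndal (an interferon-inducible gene) at 0.079. The median distance of those probe sets was 0.45. Among the members, which are themselves part of the mean profile, Cd79a (0.13) and Blnk (0.16) lay nearest to it. Vpreb3 (0.72) lay farthest, followed by Cd79b (0.58) and Syk (0.44). Atp1b1 read 10.43 and 10.13 on the Cre-GFP arrays and 10.67 and 11.29 on the control arrays, a difference of −0.70 ± 0.25. With 4 arrays, such likeness describes these arrays only.

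Downstream of the receptor, 36 of 48 listed adaptors, kinases and effectors were measured, each by its brightest probe set. Of these 25 were lower and 11 higher in Cre-GFP, where 49.8% of all probe sets were lower. Without overlap 8 were lower and 4 higher, against 14.7% and 15.2% of all. In limma 0 passed the threshold. At an unadjusted p under 0.05, 4 were lower and 0 higher, against 2.4% of all in each direction. The median difference was −0.07. Pik3cg, a catalytic subunit of phosphoinositide 3-kinase, read 7.58 and 7.47 on the Cre-GFP arrays and 8.61 and 8.77 on the control arrays, close replicates in both groups, with a difference of −1.17 ± 0.17 (adjusted p = 0.31 in limma) and −1.09 on its other probe set. Prkcb, the protein kinase C that links the receptor to NF-kappaB, differed by −1.26 ± 0.33, and by −0.78 without Cre-GFP 2. Hcls1, a Syk substrate of the actin cytoskeleton, differed by −0.62 ± 0.21, and by −0.37 without control 2. Pdpk1, the kinase that activates Akt, differed by −0.53 ± 0.21, and by −0.31 without Cre-GFP 2. The direct substrate of Btk, Plcg2, stood the other way, at 0.39 ± 0.18, and was named after its value was seen.

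Of 28 listed inhibitory receptors, phosphatases and their adaptors, 23 were measured, 15 lower and 8 higher, with a median of −0.13. Without overlap 5 were lower and 2 higher, against 14.7% and 15.2% of all probe sets. In limma 0 passed the threshold. At an unadjusted p under 0.05, 2 were lower and 0 higher, against 2.4% of all in each direction. Fcgr2b, the inhibitory Fc receptor of B cells and myeloid cells, read 8.30 and 9.02 on the Cre-GFP arrays and 10.79 and 10.25 on the control arrays, a difference of −1.86 ± 0.31 (3.63-fold, adjusted p = 0.41 in limma). Its 3 other probe sets differed by −0.66 to −1.44. Ptpn22, a phosphatase of Src-family kinases, differed by −0.41 ± 0.15, and by −0.22 without control 2. Pag1, a membrane adaptor for the inhibitory kinase Csk, differed by 0.56 ± 0.33 and Dok3, an adaptor that dampens receptor signalling, by −0.60 ± 0.40, both with overlapping groups. Without control 1 the difference of Pag1 was 0.03, and without Cre-GFP 2 that of Dok3 was 0.03.

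The heavy chain partner of the surrogate light chain was read by Ighm, the mu constant region. Its brightest probe set read 13.79 and 13.12 on the Cre-GFP arrays and 14.07 and 13.91 on the control arrays, without overlap and with a difference of −0.54 ± 0.22 (−0.20 without Cre-GFP 2). The next brightest Ighm probe set differed by −0.65 ± 0.24, and the 9 dimmer ones by −0.18 to 0.19. Of 25 listed immunoglobulin chain names 7 were measured, 5 lower and 2 higher, with a median of −0.12 and 0 past the threshold in limma. Without overlap 2 were lower and 1 higher, against 14.7% and 15.2% of all. At an unadjusted p under 0.05, 0 were lower and 1 was higher, against 2.4% of all probe sets in each direction. That one was Jchain, the joining chain of secreted IgM, at 0.48 ± 0.11. Jchain was dim, with its mean at the 32.9th percentile. It read 5.75 and 5.68 on the Cre-GFP arrays and 5.30 and 5.18 on the control arrays. The light chain genes Igk and Iglv1 were also dim and differed by −0.12 ± 0.12 and −0.13 ± 0.13. Probe sets for immunoglobulin genes can share sequence with one another and were not told apart.

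Of 22 listed transcription factors that act on pre-B receptor genes, 21 were measured. Of these 15 were lower and 6 higher, with a median of −0.10. Without overlap 6 were lower and 0 higher, against 14.7% and 15.2% of all probe sets. In limma 0 passed the threshold. At an unadjusted p under 0.05, 4 were lower and 0 higher, against 2.4% of all in each direction. Ebf1, which activates Igll1, Vpreb1, Cd79a and Cd79b in B cell progenitors, read 11.71 and 11.60 on the Cre-GFP arrays and 12.30 and 12.03 on the control arrays, a difference of −0.51 ± 0.15, with −0.55 and −0.38 on its other probe sets. Pou2af1, the coactivator at octamers, differed by −1.68 ± 0.49, Spib, an Ets factor, by −2.26 ± 0.57, and Id3, an inhibitor of E proteins, by −0.78 ± 0.19. Pou2af1 and Spib were both lowest in Cre-GFP 2, and without it they differed by −0.89 and −1.41. Pax5, the B cell commitment factor that binds the Cd79a promoter, was read by a dim probe set at the 42.5th percentile, with a difference of −0.07 ± 0.15, and was named after its value was seen. In these lists non-overlap downwards made up 22.2%, 21.7%, 28.6% and 28.6% of the measured genes, in the order given, against 14.7% of all probe sets. For the immunoglobulin list that share is 2 of 7 genes. Probe sets whose suffix marks probes for more than 1 transcript were also left out. The counts were then 7, 3, 0 and 3 rather than 8, 5, 2 and 6, against 14.6% of all remaining probe sets. That setting dropped the brightest probe sets of Ighm and Ebf1, among others.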

How the data were processed

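The 1 table deposited by the authors holds an intensity per probe set and array, unlogged, from RMA per the submitters' processing notes; its version, the probe definitions and the genome build are not given in the sources used here. RMA normally equalizes arrays and compresses differences of dim probe sets. The table held 22690 probe sets; 64 control probe sets were left out and 22626 were put on the log2 scale without further normalization. The platform annotation gave 1 symbol for 20393 probe sets, and 20364 of these matched the RefSeq table (GRCm38.p6) by gene number.

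Groups were compared per probe set with limma 3.58.1 in R 4.3.3 (lmFit, eBayes with trend, two-sided). The p-values were adjusted by Benjamini-Hochberg over all probe sets, with a threshold of 0.05. The procedure was also run on simulated data with independent arrays, which cannot show how it behaves where arrays vary together. Precision is limited by the number of arrays, and the median 95% interval reached 0.37 to either side on the log2 scale. All 12 member probe sets are described. From each of the 4 other lists, the 4 genes with the smallest unadjusted p are named by their brightest probe set, and the 5 genes nearest to the members' mean profile. Members, lists and markers were chosen with earlier results of these data known. In all, 15 alternatives were tried.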

Additional observations from a re-analysis of the deposited data

How the results depend on the processing

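All values rest on 2 arrays per group. The count of the 12 member probe sets past the threshold was 0 under each of the 15 alternatives, and 0 genes of the 4 other lists passed in any. Over all probe sets the count was 0 by default, 14 with values under the 20th percentile raised to it, 1 with an ordinary two-sample test and 0 to 26 with single arrays left out (26 without control 1, 1 without control 2). With that ordinary test 1 member was lower at an unadjusted p under 0.05 rather than 2 (2.09% against 2.4% of all probe sets); 3 were with dim values raised (2.48%), with quantile normalization (2.59%) and without the dimmest probe sets (2.39%), and 1 to 6 with single arrays left out (1.93% to 3.39%). The count of members lower without overlap was 8 to 9 with single arrays left out, when fewer arrays have to be separated and 29.1% to 35.8% of all probe sets were lower in this way, and 4 to 6 otherwise (11.3% to 15.8% of all), the 4 being of 9 genes with the mean of their probe sets. With single arrays left out, differences crossed 0 for the dim Igll1 probe set (−0.33 to 0.098, with 0.02 without Cre-GFP 1), the brightest Syk probe set (−0.84 to 9.5e-04), the dim one (−0.18 to 0.32, and −0.0026 with dim values raised), Btk (−0.50 to 0.052), Blk (−1.13 to 0.23), the probe set shared by Vpreb1 and Vpreb2 (−1.40 to 0.39) and Dok3 (−1.22 to 0.025); the cause was not tested beyond the array left out. Whether the same-numbered arrays share more than a number is not given. Their deviations from the group means correlated at 0.36 over 22626 probe sets, and the source of this was not tested. With the replicate number as a block 0 member probe sets passed in limma and 3 were lower at an unadjusted p under 0.05. Over all probe sets 845 rather than 544 were lower in this way (3.73% against 2.4%).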
